A study of Mus musculus with 2 samples.

Results

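The 35 genes described here are transcribed while a cell copies its DNA (S phase) or prepares for and goes through division (G2 and M phase), and they were taken from a list of 35 symbols, all of which are among the 23679 genes of the deposited tables. By role, 12 belong to S phase, 21 to G2 and M phase, and 2, Tuba1b and Stmn1, encode parts or regulators of the microtubule skeleton. The 33 genes outside Tuba1b and Stmn1 are called the module below, and their UMIs (unique molecular identifiers, each standing for 1 captured transcript) were summed in each cell. The cells were sorted as group 3 innate lymphoid cells (ILC3s), gut lymphocytes without antigen receptors that make IL-22, from the lamina propria of the small intestine of male C57BL/6 mice aged 18 months. The data form 1 group of n = 2 replicates, each drawn from a separate BD Rhapsody single-cell library by its sample tag (6 for replicate 1, 12 for replicate 2). The labels give no genotype beyond the strain, no treatment, and no statement that the replicates were separate animals, so the spread between them may be technical. The question asked of the cell cycle genes was how many of the sorted cells carried them and whether kinds of cell defined by other transcripts differed in them.

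Kinds of cell were set by UMIs of other genes. T cells had at least 1 UMI of Cd3d, Cd3e or Cd3g, which encode the signalling chains of the T cell receptor. Among cells with none of these, Ncr1-positive cells had a UMI of Ncr1, the natural cytotoxicity receptor gene of one ILC3 subset. Ccr6 or Cd4 positive cells had no Ncr1 UMI and at least 1 UMI of Ccr6 or Cd4, which mark lymphoid tissue inducer cells. All other cells form the rest. Replicates 1 and 2 gave 1149 and 1117 T cells, 608 and 438 Ncr1-positive cells, 128 and 79 Ccr6 or Cd4 positive cells, and 1452 and 2206 rest cells.

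In a dividing lymphocyte, the MCM helicase is loaded on DNA in G1 and unwinds it in S phase, when the sliding clamp PCNA holds the polymerases in place and ribonucleotide reductase supplies deoxynucleotides. In G2 and M phase, cyclins A and B activate CDK1, topoisomerase II untangles the copied chromosomes, kinesins and Aurora kinases build and orient the spindle, and the anaphase-promoting complex with CDC20 and UBE2C then degrades the cyclins. Transcription follows the same order. E2F factors drive S phase genes, and a complex that binds the cell cycle homology region (CHR) and CCAAT boxes drives G2 and M genes late in the cycle. Tissue ILC3s of the adult gut are long-lived and divide rarely.

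Most of the promoters searched held some of these elements, while those of Tyms, Nusap1 and Tuba1b held none. The RefSeq promoter table (GRCm38.p6, 250 bases before to 50 after each start) held 29 of the 35 genes. The CHR letters searched were TTTGAA and TTTAAA, the CCAAT box was CCAAT, and the E2F letters were TTCCCGC and TTGGCGC, each on both strands, with overlaps not removed. A CHR was present in 69.0% of the 29 promoters and in 27.8% of all 27025 promoters of the table. For the CCAAT box the shares were 86.2% and 37.9%, and for E2F letters 31.0% and 6.93%. By role, a CHR stood in 16 of 18 promoters of G2 and M genes and in 4 of 10 of S phase genes, and E2F letters stood in 3 of 18 and 6 of 10. A match describes letters and does not show that a factor binds. Of the promoters below, those of Top2a and Ccnb2 belong to genes whose UMIs lay mostly in few cells, and those of Hmgb2 and Pcna to the genes found in the most cells. Capitals mark CHR letters (TTTGAA, or TTCAAA from the other strand) and CCAAT boxes (CCAAT or ATTGG), and none of the 4 windows held the E2F letters.

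Top2a (chr11:99024140-99024439, minus strand): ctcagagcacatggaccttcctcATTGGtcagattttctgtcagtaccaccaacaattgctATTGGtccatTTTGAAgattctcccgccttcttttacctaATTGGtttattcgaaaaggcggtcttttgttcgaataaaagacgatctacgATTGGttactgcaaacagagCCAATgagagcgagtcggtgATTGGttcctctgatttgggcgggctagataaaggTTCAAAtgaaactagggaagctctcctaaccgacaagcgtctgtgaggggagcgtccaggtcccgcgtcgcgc
Ccnb2 (chr9:70421505-70421804, minus strand): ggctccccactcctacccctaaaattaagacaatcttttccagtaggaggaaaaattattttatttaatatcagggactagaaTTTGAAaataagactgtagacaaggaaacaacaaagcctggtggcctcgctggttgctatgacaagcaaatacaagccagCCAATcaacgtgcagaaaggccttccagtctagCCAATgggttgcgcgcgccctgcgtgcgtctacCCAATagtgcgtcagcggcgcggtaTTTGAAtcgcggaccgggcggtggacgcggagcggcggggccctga
Hmgb2 (chr8:57511593-57511892, plus strand): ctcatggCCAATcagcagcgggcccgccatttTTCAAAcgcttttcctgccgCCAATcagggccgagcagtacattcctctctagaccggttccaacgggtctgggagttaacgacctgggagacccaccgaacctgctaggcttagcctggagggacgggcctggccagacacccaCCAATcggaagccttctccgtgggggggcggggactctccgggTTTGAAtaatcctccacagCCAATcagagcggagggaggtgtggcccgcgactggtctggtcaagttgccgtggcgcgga
Pcna (chr2:132253131-132253430, minus strand): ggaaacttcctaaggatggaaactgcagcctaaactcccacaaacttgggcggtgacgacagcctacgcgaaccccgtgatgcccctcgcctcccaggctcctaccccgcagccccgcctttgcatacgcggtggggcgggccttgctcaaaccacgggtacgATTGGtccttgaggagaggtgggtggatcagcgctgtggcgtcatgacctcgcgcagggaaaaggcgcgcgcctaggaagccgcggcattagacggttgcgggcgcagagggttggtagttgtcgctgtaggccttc

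The CHR letters nearest the RefSeq start began at base -23 from it in Top2a, at -30 in Hmgb2 and at 5 in Ccnb2. The Pcna window held 1 CCAAT box and no CHR. For Hmgb2, Ccnb2 and Pcna the RefSeq start differs from the start in the GENCODE gene positions, so these distances hold for the RefSeq starts only.

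Depth and cell types bear on every count that follows. Kept cells (at least 300 genes and at most 25% mitochondrial UMIs) numbered 3337 in replicate 1 and 3840 in replicate 2, with 6939790 and 6810214 UMIs in all and medians of 1880.0 and 1674 UMIs per cell. The 2 sets of cells shared 10 cell barcodes. The sort was labelled ILC3, and of 6 ILC3 markers Il7r had a UMI in 84.8 to 94.3% of cells of each kind and replicate. T cells by Cd3 UMIs made up 34.4% and 29.1% of kept cells, which goes against a label of cells without antigen receptors. In 20.5% and 37.1% of them the call rested on a single Cd3 UMI. T cell receptor constant gene UMIs were found in 97.7% and 96.2% of T cells, 92.1% and 84.7% of Ncr1-positive cells, 57.0% and 60.8% of Ccr6 or Cd4 positive cells, and 78.3% and 78.7% of rest cells, so the border of the T cells depends on the genes that draw it. Calling T cells also by these genes gave 2919 and 3273 T cells. It left 48 and 67 Ncr1-positive, 55 and 31 Ccr6 or Cd4 positive and 315 and 469 rest cells, so calls lost in that setting also had fewer cells behind them. Stromal collagen markers were found in 35.0 to 40.1% of cells of each kind in replicate 1 and in 2.18 to 5.06% in replicate 2, and B or plasma cell markers in 23.9 to 32.0% and 2.97 to 7.59%. Their part in the results was not tested except where values without such cells are given.

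Among the S phase genes, Pcna was the most abundant and the genes of the replicative helicase stood well below it. Pcna, the sliding clamp gene (GRCm38, chromosome 2, 132249162 to 132253314), stood at 158 and 148 CPM (the gene's share of all UMIs of the same cells, scaled to parts-per-million) in replicates 1 and 2, and had a UMI in 24.96% and 21.1% of cells. Rrm1, the large subunit of ribonucleotide reductase, stood at 68.4 and 71.4 CPM. Its small partner Rrm2, which is made anew in each S phase, stood at 8.07 and 5.43 CPM, and Tyms, which makes thymidylate, at 6.63 and 5.58 CPM. Of the MCM helicase genes, Mcm4 was at 32.4 and 30.2 CPM and Mcm5 at 18.3 and 18.9 CPM. The other helicase genes, Mcm2, Mcm3, Mcm6 and Mcm7, had means of 10.9 to 16.7 CPM. Gmnn, the inhibitor of a further round of helicase loading, averaged 8.37 ± 1.65 CPM (SD, n = 2), and Pclaf, a PCNA-binding protein, 8.45 ± 2.38 CPM. The median over the 12 S phase genes was 12.4 CPM, against 3.49 CPM over the 21 G2 and M genes. UMI counts were not corrected for differences in capture between genes, so the order of the levels describes transcripts counted.

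Among the G2 and M genes, Hmgb2 and Cenpa stood far above the others. Hmgb2, a chromatin protein abundant in dividing cells (chromosome 8, 57511907 to 57515999), was at 414 and 516 CPM and had a UMI in 47.2% and 46.1% of cells. Cenpa, the centromeric histone, was at 73.1 CPM in replicate 1 and at 160 CPM in replicate 2. This 2.19-fold gap between replicates was the widest among the 10 genes with the highest means, and it was seen in every kind of cell, at 89.6 and 189 CPM in T cells and at 61.3 and 148 CPM in rest cells. Mki67, the classic proliferation marker that coats mitotic chromosomes (chromosome 7, 135689784 to 135716361), was at 23.3 and 22.3 CPM and had a UMI in 1.68% and 1.67% of cells. Top2a (chromosome 11, 98992943 to 99024189) was at 19.7 and 22.9 CPM, with a UMI in 1.71% and 1.51% of cells. The other 17 G2 and M genes averaged under 12 CPM, and all of them but Kif23 were found in fewer than 50 cells. Cdk1, the mitotic kinase, averaged 2.99 ± 1.17 CPM on 41 UMIs in 32 cells, and its partner Ccnb2 2.32 ± 0.792 CPM on 32 UMIs in 22 cells. Ccnb1, the other cyclin B gene, had 1 UMI in replicate 1 and 0 of 6810214 UMIs in replicate 2, so its level in replicate 2 was below detection at this depth.

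The skeleton genes differed from each other in the same way. Tuba1b, an alpha-tubulin gene with close paralogs, was at 148 and 125 CPM and had a UMI in 21.5% and 17.0% of cells. Stmn1, which destabilises microtubules and is made in dividing lymphocytes, was at 25.2 and 43.6 CPM but had a UMI in only 1.86% and 2.73% of cells. Of all 35 genes, 4 averaged at least 100 CPM and 20 averaged under 10 CPM. No kind of cell in the sort must lack these transcripts, so a share of cells that free RNA alone would give could not be set.

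**Figure D1:**
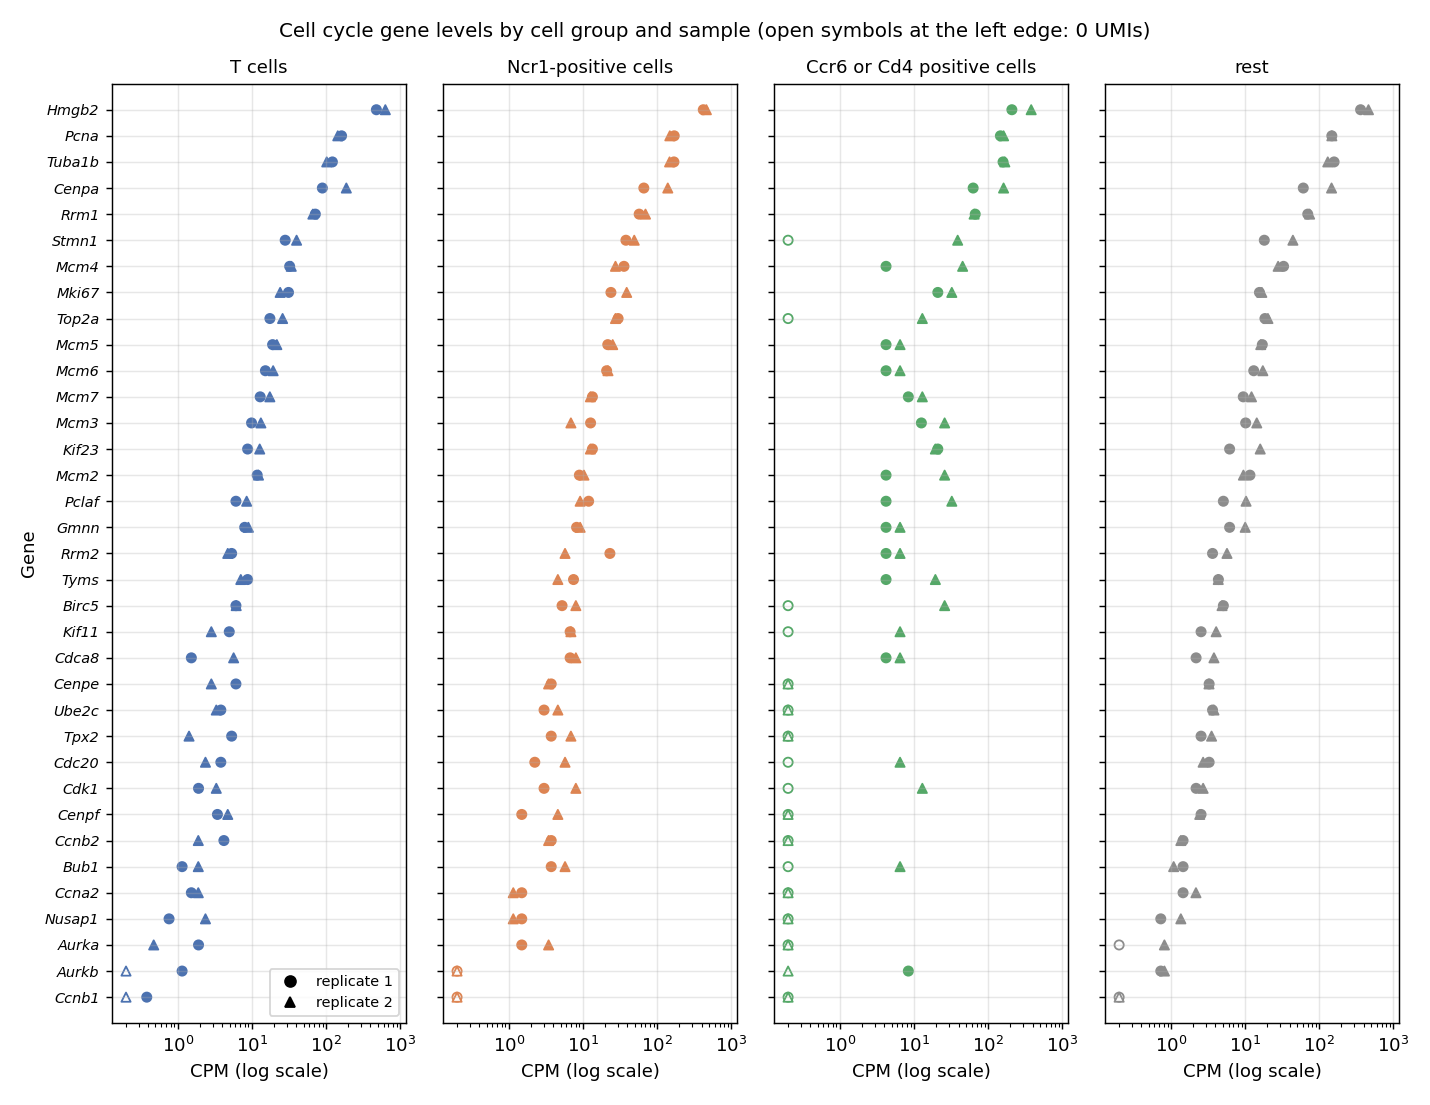
Level of each of the 35 genes in CPM (log axis) in T cells, Ncr1-positive cells, Ccr6 or Cd4 positive cells and the rest, with a circle for replicate 1 and a triangle for replicate 2. Hmgb2 is the highest gene in each panel, and most G2 and M genes lie under 10 CPM, with many at 0 UMIs in the 128 and 79 Ccr6 or Cd4 positive cells.

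The UMIs of most mitotic genes lay in a small set of cells that carried many other module UMIs, and those of Hmgb2, Pcna, Cenpa and Rrm1 did not. For each gene the cells were sorted by the UMIs of the other module genes only, so that a gene could not place its own cells. Cells with at least 10 UMIs of the other genes held 88.5% of the 26 UMIs of Bub1, a spindle checkpoint kinase, and 85.4% of the 48 UMIs of Tpx2, a spindle assembly factor. They held 81.0% of Birc5 (survivin), 80.5% of Cenpf, a kinetochore protein, 79.6% of Ube2c and 79.3% of Pclaf UMIs. The share was 73.5% for Stmn1, 68.3% for Top2a, 66.2% for Mki67 and 63.4% for Rrm2. It was 13.3 to 26.1% for the MCM genes, 10.6% for Hmgb2, 8.83% for Pcna, 6.24% for Rrm1 and 4.70% for Cenpa. The cells concerned were 1.09% of all cells and held 2.39% of all UMIs in the case of Mki67, so every share named exceeded the share of all UMIs in such cells, by the least for Cenpa (4.70% against 2.38%). In replicates 1 and 2 Stmn1 had 72% and 74.4%, Mki67 64.2% and 68.4%, Top2a 58.4% and 76.9%, Mcm3 33.8% and 19.8%, and Hmgb2 9.71% and 11.4%, so the order of Stmn1, Mki67 and Top2a differed between replicates. Tuba1b, with 13.0%, stood with the widely found genes. Among the spindle genes Kif23, a cytokinesis kinesin, had only 22.7%, and Aurka, a spindle pole kinase, 14.3% of 14 UMIs.

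**Figure D2:**
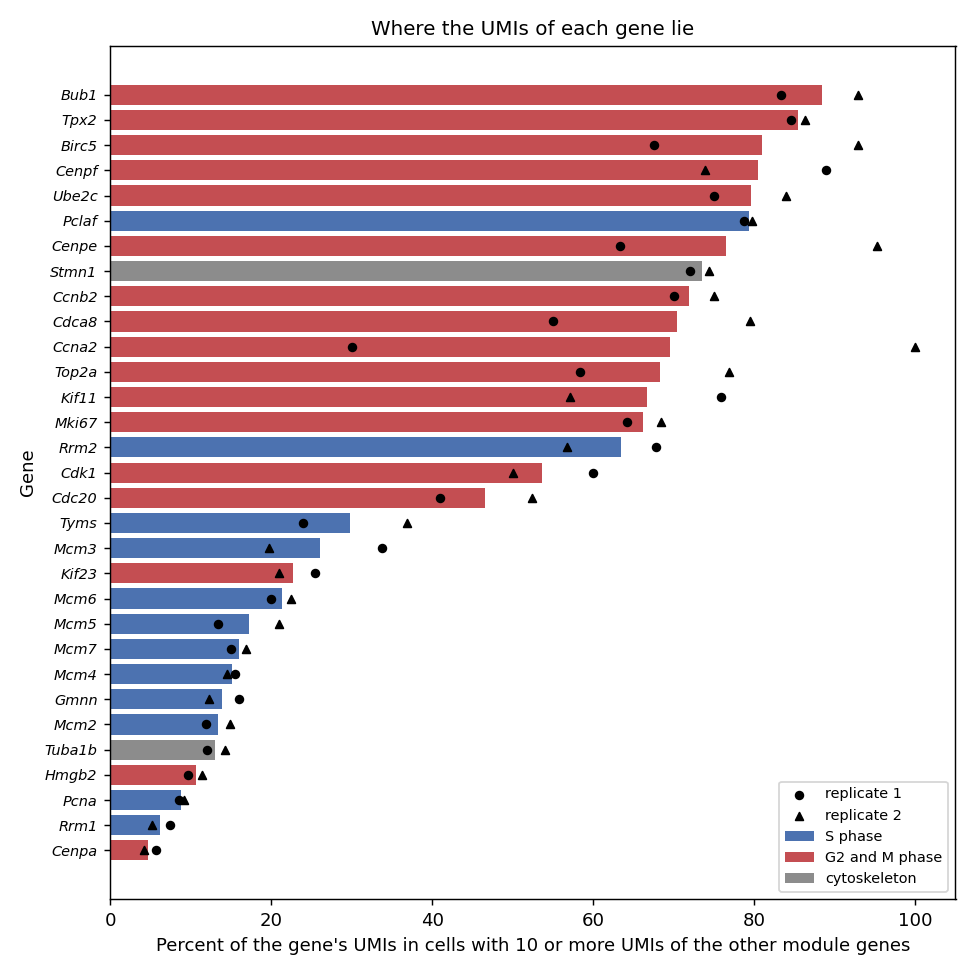
Percent of each gene's UMIs that lie in cells with at least 10 UMIs of the other module genes, for the 31 genes with at least 20 UMIs. Bars pool both replicates and symbols give each replicate; Bub1 and Tpx2 stand at the top and Hmgb2, Pcna, Rrm1 and Cenpa at the bottom.

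With the lower threshold of 3 or more UMIs of the other genes the ends of the order were much the same. The 5 highest shares were those of Ube2c (89.8%), Tpx2 (89.6%), Bub1 (88.5%), Cenpe, a kinetochore motor (88.2%), and Pclaf (86.2%). The 5 lowest were those of Hmgb2 (22.7%), Pcna (29.1%), Cenpa (30.4%), Rrm1 (33.6%) and Tuba1b (37.8%). Where exons of another annotated gene overlap, reads may be shared. On the same strand this holds for Top2a with Gm23451, Stmn1 with Gm23634, Mcm7 with Mir25 and Mir93, and Tuba1b with Gm49450. On the other strand it holds for Ube2c with Tnnc2, Cdca8 with 9930104L06Rik, Ccna2 with Exosc9 and Cdc20 with Elovl1. It also holds there for Nusap1 with Oip5, Mcm7 with Ap4m1 and Cops6, and Tuba1b with Gm41396. Pcna, Ccnb1, Ccnb2 and Tyms have named pseudogenes.

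Module UMIs per cell ran from 0 to 112. Of the 14222 module UMIs, 77.7% came from Hmgb2, Pcna, Cenpa and Rrm1. In replicates 1 and 2, 27.3% and 26.9% of cells had no module UMI, 49.5% and 48.2% had 1 or 2, 16.5% and 17.1% had 3 or 4, and 5.78% and 6.43% had 5 to 9. Cells with at least 10, a threshold chosen after these counts were seen, numbered 29 and 52. They were 1.13% of the 7177 kept cells and held 18.0% of module UMIs. Near that threshold 117 cells had 7 to 9 and 23 cells had 10 to 12 module UMIs, so the border was not a gap.

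**Figure D3:**
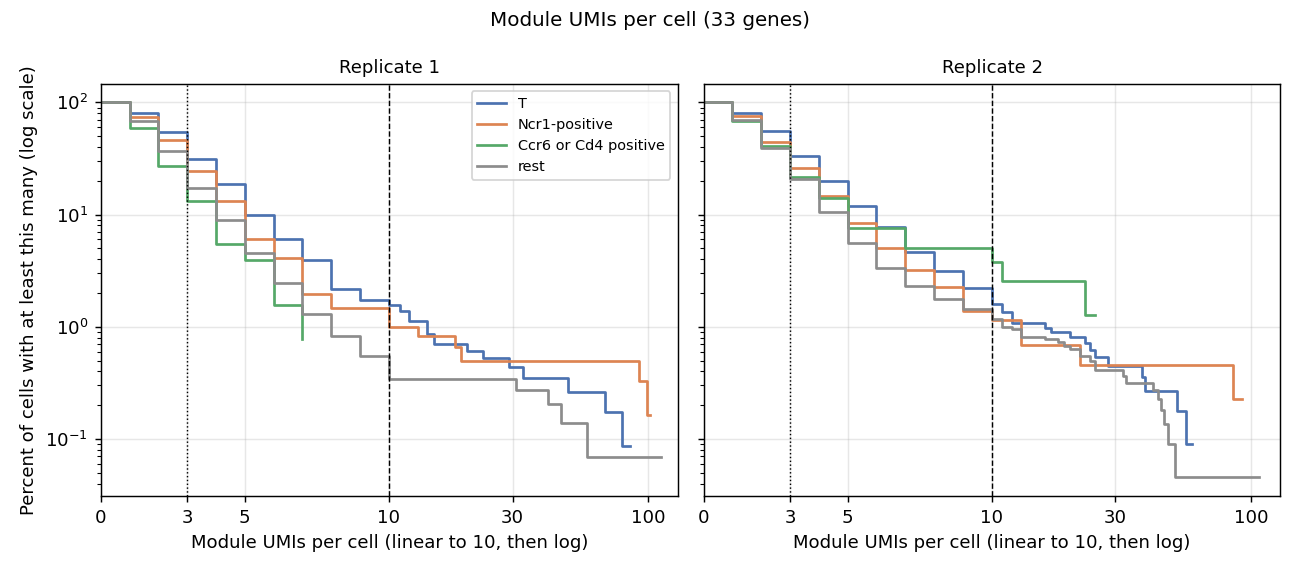
Percent of cells (log axis) with at least the given number of module UMIs (linear to 10, then log) for the 4 kinds of cell in each replicate; dotted and dashed lines mark 3 and 10 UMIs. The curves fall steeply up to 10 UMIs and then run flat to about 100, a tail of 29 and 52 cells.

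The 81 cells with at least 10 module UMIs carried genes of both phases. With Hmgb2 left out of the G2 and M sum, 51 had at least 3 UMIs from each phase, 12 had them from S phase only, 11 from G2 and M phase only, and 7 from neither. Mki67 was found in 52 and Top2a in 45, and 22 had neither. By kind they were 18 and 18 T cells, 6 and 5 Ncr1-positive cells, 0 and 3 Ccr6 or Cd4 positive cells, and 5 and 26 rest cells in replicates 1 and 2. Of ILC3 markers, Il7r had a UMI in 100% and 96.2% of them and Il22 in 65.5% and 61.5%, shares that rise with depth. All 6 ILC3 markers summed to 3472 and 3888 CPM in these 81 cells. The sums were 3404 and 4046 CPM in T cells and 5203 and 5240 CPM in Ncr1-positive cells. They were 8353 and 7405 CPM in Ccr6 or Cd4 positive cells and 5222 and 5683 CPM in the rest. The 81 cells were deep, with a median of 3697 UMIs against 1754 in the other cells. At least 2 UMIs of markers of B or plasma, myeloid, stromal, endothelial, epithelial or mast cells were carried by 62.1% and 21.2% of these cells, whereas 31.9% and 5.39% of all remaining cells did so. Of 6 myeloid markers 4 and 2 were detected, summing to 1043 and 10.4 CPM, with Csf1r and C1qb at 0. Of 6 B or plasma cell markers 4 and 5 were detected, summing to 116 and 5879 CPM, with Ms4a1 at 0 and most of the second sum from Igha in 3.85% of cells. Of 4 stromal markers 4 and 2 were detected, summing to 214 and 62.4 CPM. Endothelial markers summed to 97.6 and 125 CPM with Cdh5 and Kdr at 0, epithelial markers to 54.9 and 20.8 CPM, and mast cell markers to 0 and 10.4 CPM. A Cd3 and a Ncr1 UMI stood together in 2 of the 81. The part of doublets in these cells was not tested.

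Other cell cycle genes outside the list, grouped by role, had high levels in the same 81 cells. All 18 replication genes with at least 20 UMIs were higher in CPM in these cells than in the others in both replicates, with median folds of 9.42 and 6.39, and so were all 27 mitosis genes, with median folds of 14.5 and 20.6. Uhrf1, which restores DNA methylation after replication, was at 122 CPM against 1.92 CPM in replicate 1. Tubb5, a beta-tubulin, was at 824 CPM against 98.1 CPM. Of 6 G1 cyclin and kinase genes 4 were higher in both replicates, with median folds of 1.48 and 2.18, and of 10 genes that hold back the cycle 5 were, with median folds of 1.28 and 1.05. Over all genes with at least 20 UMIs the share higher in both replicates was 25.98%. The cells were chosen by genes that rise in the same phases, so these folds are a description.

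Shares of cells with 3 or more module UMIs were highest in T cells. In replicates 1 and 2 they were 31.3% (exact Clopper-Pearson 95% interval 28.7 to 34.1) and 33.2% (30.5 to 36.1) in T cells, 24.5% (21.1 to 28.1) and 26.03% (22.0 to 30.4) in Ncr1-positive cells, 13.3% (7.93 to 20.4) and 21.5% (13.1 to 32.2) in Ccr6 or Cd4 positive cells, and 17.1% (15.2 to 19.1) and 20.6% (18.95 to 22.4) in the rest. These intervals cover counting error only, and with 2 samples no test of the shares was made. T cells lay above the rest in both replicates, by more than the gap between the replicates of either. The kinds of cell also differed in depth: the median was 1991 and 1769 UMIs in T cells, 2045 and 1860 in Ncr1-positive cells, 1629 and 1670 in Ccr6 or Cd4 positive cells, and 1725 and 1579 in the rest.

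With every cell thinned to 1000 UMIs, and the 186 and 313 shallower cells left out, the shares were 8.35% and 14.2% in T cells, 5.74% and 7.88% in Ncr1-positive cells, 5.04% and 5.41% in Ccr6 or Cd4 positive cells, and 5.96% and 9.14% in the rest. At equal depth T cells still lay above the rest within each replicate, but their 8.35% in replicate 1 was below the 9.14% of the rest in replicate 2. Ncr1-positive cells, above the rest before thinning, lay below it in both replicates after, but with overlapping intervals. These were 4.01 to 7.93% against 4.74 to 7.37% in replicate 1, and 5.48 to 10.9% against 7.90 to 10.5% in replicate 2. The Ccr6 or Cd4 positive shares stood on 6 and 4 cells.

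Without thinning, T cells lay above Ncr1-positive cells, and these above the rest, with or without the most abundant module genes. Only the place of the Ccr6 or Cd4 positive cells changed, and without those genes their shares stood on fewer than 3 cells in each replicate. Without Hmgb2, Pcna, Cenpa and Rrm1 the shares with 3 or more UMIs were 2.61% and 2.24% in T cells, 1.97% and 1.83% in Ncr1-positive cells, 1.56% and 2.53% in Ccr6 or Cd4 positive cells, and 1.17% and 1.72% in the rest. Cells with 10 or more UMIs of the whole module were 1.57% (0.931 to 2.46) and 1.61% (0.958 to 2.53) of T cells, 0.987% (0.363 to 2.14) and 1.14% (0.372 to 2.64) of Ncr1-positive cells, and 0.344% (0.112 to 0.802) and 1.18% (0.771 to 1.72) of the rest. Among Ccr6 or Cd4 positive cells they were 0 of 128 (0 to 2.84), where 3 counts would be 2.34%, and 3 of 79, or 3.80% (0.790 to 10.7). The intervals of T cells and the rest did not overlap in replicate 1 and overlapped in replicate 2. They cover counting error within 1 library only and take no account of the unlike depth, so they are no test. Without cells that carried other cell types' markers the shares with 10 or more were 0.769% and 1.51% in T cells and 0.201% and 0.960% in the rest, with overlapping intervals in both replicates. Thinned to 1000 UMIs they were 0.449% and 0.470% in T cells and 0.302% and 0.355% in the rest.

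**Figure D4:**
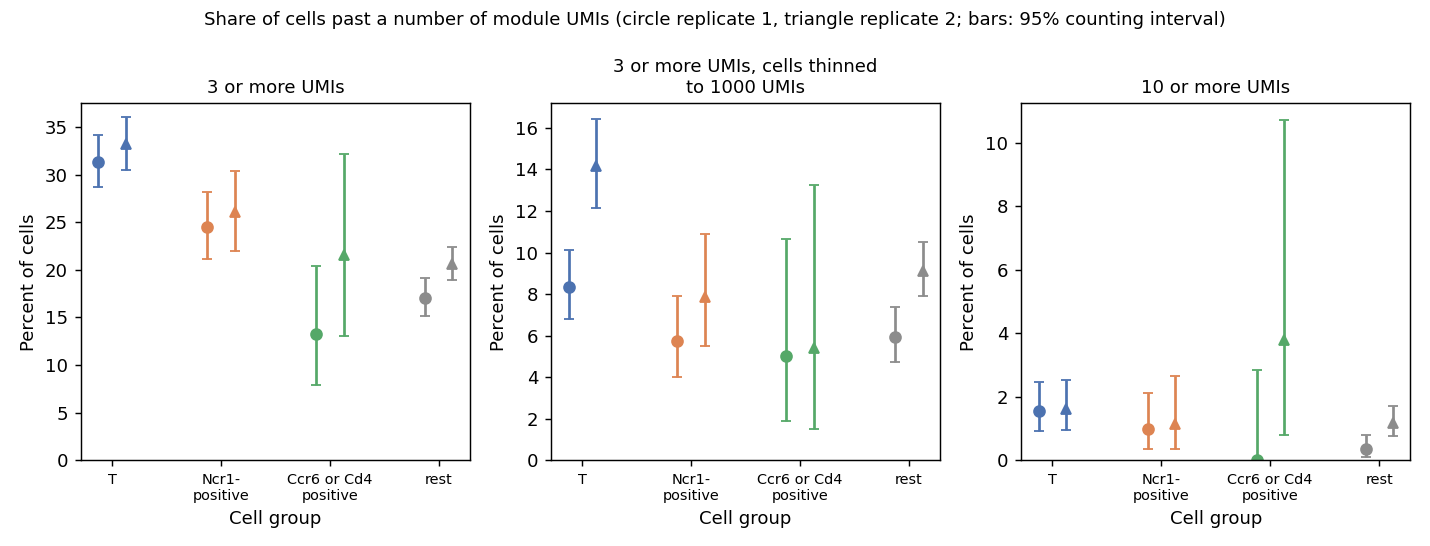
Percent of cells with 3 or more module UMIs, the same after thinning each cell to 1000 UMIs, and percent with 10 or more, by kind of cell and replicate, with exact 95% counting intervals. T cells exceed the rest within each replicate in all panels. The Ncr1-positive share lies above the rest in the left panel and below it, with overlapping intervals, in the middle one.

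UMIs were then summed per replicate and kind of cell, and the 8 sums were compared by edgeR's quasi-likelihood test with the replicate as a block. Of the 35 genes 23 passed the filter on low counts. Those left out were Ccnb1, Ccnb2, Ube2c, Cenpe, Cenpf, Tpx2, Aurka, Aurkb, Bub1, Ccna2, Cdc20 and Nusap1, all of G2 and M phase, so the tests say little of late mitosis. The comparisons with the rest share its cells. In sums of cells, more cycling cells, more transcripts per cycling cell and more transcripts in cells outside the cycle cannot be told apart.

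In T cells against the rest, Hmgb2, Cenpa and Mki67 were higher, and none of the 23 genes was called lower, with Tuba1b close to the threshold. Hmgb2 stood at 481 and 635 CPM in T cells of replicates 1 and 2, against 364 and 465 CPM in the rest. T cells were the higher within each replicate and the groups did not overlap, although the 481 CPM of replicate 1 lay near the 465 CPM of the rest in replicate 2. The log2 ratio was 0.45 ± 0.11 (SE, adjusted p = 0.0062). Cenpa, at 89.6 and 189 CPM against 61.3 and 148 CPM, had a log2 ratio of 0.46 ± 0.12 (adjusted p = 0.012), again higher within each replicate, while the groups overlapped across replicates. Mki67 stood at 31.3 and 24.1 CPM in T cells, against 15.7 and 16.9 CPM in the rest, on 82 and 51 UMIs against 43 and 62. The groups did not overlap, and the log2 ratio was 0.80 ± 0.24 (adjusted p = 0.024). Among all 9637 genes tested 13.8% were called, 6.49% higher and 7.29% lower, and of the 23 genes here 3 were higher and 0 lower. Counted in either direction, these 3 calls lay near the share called over all genes. The median log2 ratio was 0.18 over the 23 genes and -0.01 over all genes. B or plasma cell markers summed to 1101 and 45.4 CPM in T cells, against 3156 and 1933 CPM in the rest, and stromal markers to 3322 and 106 CPM against 4069 and 83.9 CPM. Without cells carrying other types' markers the log2 ratios of Hmgb2, Cenpa and Mki67 were 0.47 (adjusted p = 0.00031), 0.41 (adjusted p = 0.026) and 1.33 (adjusted p = 0.0075).

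The 81 cells were chosen by a sum that includes these genes and held 72.3% of Mki67, 13.1% of Hmgb2 and 7.02% of Cenpa UMIs, so values without them are a description and no test of which cells carry a call. Without the 81 cells with at least 10 module UMIs, the log2 ratio of Mki67 was 0.34 (adjusted p = 0.69), and those of Hmgb2 and Cenpa were 0.47 (adjusted p = 0.00066) and 0.46 (adjusted p = 0.0079). The Mki67 call also ended when cells were thinned (0.70, adjusted p = 0.31) and with DESeq2 (0.81, adjusted p = 0.28), and with T cells also called by receptor constant genes Mki67 had no value. The Cenpa call ended with the stricter cell filter (0.30), with T cells also called by receptor constant genes (0.27) and with DESeq2 (0.47, adjusted p = 0.053). Without the replicate block none of the 3 passed. Tuba1b stood at 122 and 103 CPM in T cells, against 160 and 131 CPM in the rest, with a log2 ratio of -0.34 ± 0.12 that missed the threshold (adjusted p = 0.051). It passed in 5 alternatives, thinned (-0.42, adjusted p = 0.040), with the looser cell filter (-0.34, adjusted p = 0.047), without cells carrying other types' markers (-0.39, adjusted p = 0.035), with RLE size factors (-0.34, adjusted p = 0.046) and without the 81 cells (-0.44, adjusted p = 0.0093). Pcna and Rrm1, widely found like Hmgb2, did not pass, Pcna with a log2 ratio of 0.07 ± 0.11 (adjusted p = 0.78) and Rrm1 with one of -0.03 ± 0.14 (adjusted p = 0.92). The MCM genes ran from -0.08 to 0.50, and none passed. Mcm4 stood at 32.4 and 34.1 CPM against 33.2 and 28.1 CPM, and Mcm5 at 19.1 and 21.8 CPM against 17.2 and 16.3 CPM. Top2a, at 17.5 and 26.01 CPM against 18.6 and 20.4 CPM, and Stmn1, at 28.2 and 40.2 CPM against 18.2 and 44.4 CPM, did not move one way in both replicates.

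Ncr1-positive cells against the rest gave 0 calls among the 23 genes with edgeR, with 4 at an unadjusted p under 0.05, and 0 with DESeq2. Over all genes 1.09% were called, 0.0830% higher and 1.01% lower. Mki67 stood at 23.9 and 39.0 CPM in Ncr1-positive cells, against 15.7 and 16.9 CPM in the rest, on 32 and 34 UMIs. The groups did not overlap, but the log2 ratio of 0.88 ± 0.28 missed the threshold (adjusted p = 0.17), and without the 81 cells it was 0.13. Rrm2 stood at 23.2 and 5.74 CPM, against 3.65 and 5.72 CPM. Only replicate 1 stood apart, with single-replicate log2 ratios of 2.34 and -0.09 against 1.61 ± 0.49 over both (adjusted p = 0.14). It was called when the filter on low counts was dropped (adjusted p = 0.022). Hmgb2 was at 422 and 465 CPM against 364 and 465 CPM (log2 ratio 0.10 ± 0.11, adjusted p = 0.95), and Cenpa at 66.5 and 140 CPM against 61.3 and 148 CPM (-0.01 ± 0.14). Of the other abundant genes, Pcna stood at 171 and 149 CPM against 149 and 149 CPM, Rrm1 at 57.5 and 70.1 CPM against 70.4 and 74.6 CPM, and Tuba1b at 170 and 148 CPM against 160 and 131 CPM. Mcm4 stood at 35.9 and 27.6 CPM against 33.2 and 28.1 CPM, and Mcm5 at 21.7 and 25.3 CPM against 17.2 and 16.3 CPM. Stmn1 stood at 38.1 and 49.4 CPM against 18.2 and 44.4 CPM, and Top2a at 29.9 and 27.6 CPM against 18.6 and 20.4 CPM. Stmn1, Top2a, Mcm5 and Tuba1b were thus higher in both replicates, Rrm1 was lower in both, and none of these passed. The median log2 ratio was 0.38 over the 23 genes and -0.01 over all genes.

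In Ccr6 or Cd4 positive cells, Hmgb2 was lower than in the rest and than in Ncr1-positive cells. It stood at 210 and 383 CPM in Ccr6 or Cd4 positive cells, against 364 and 465 CPM in the rest, lower within each replicate, although the 383 CPM of replicate 2 lay above the 364 CPM of the rest in replicate 1. The log2 ratio was -0.63 ± 0.16 (adjusted p = 0.021), the 1 call among 23 genes, where 4.17% of all genes were called, 1.60% higher and 2.57% lower. With Ncr1-positive cells, at 422 and 465 CPM, above the Ccr6 or Cd4 positive cells, at 210 and 383 CPM, the log2 ratio was 0.74 ± 0.16 (adjusted p = 0.0062), again the 1 call among 23 genes, where 4.56% of all genes were called, 2.37% higher and 2.19% lower. In both comparisons the 1 call among 23 genes lay near the share called over all genes in either direction. In these Ccr6 or Cd4 positive cells Hmgb2 had 50 and 59 UMIs. Without the 81 cells, which include only 0 and 3 Ccr6 or Cd4 positive cells and were chosen by a sum that holds Hmgb2, the log2 ratios were -0.61 and 0.68. With DESeq2 the first was -0.57 (adjusted p = 0.065). With T cells also called by receptor constant genes they were -0.64 (adjusted p = 0.33) and 1.13 (adjusted p = 0.050), and neither passed. That setting left only 55 and 31 Ccr6 or Cd4 positive and 48 and 67 Ncr1-positive cells.

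The other genes had few UMIs in the Ccr6 or Cd4 positive cells. Top2a had 0 and 2 UMIs and Stmn1 0 and 6, and 16 and 10 of the 35 genes had none in replicates 1 and 2. In Ncr1-positive over Ccr6 or Cd4 positive cells Top2a had a log2 ratio of 2.57 ± 0.82 (adjusted p = 0.080), Mcm5 2.25 ± 0.78 (adjusted p = 0.12) and Mcm6 2.13 ± 0.80 (adjusted p = 0.16), and none of these passed. Pcna, with 147 and 162 CPM in Ccr6 or Cd4 positive cells and 149 and 149 CPM in the rest, had a log2 ratio of -0.06 ± 0.20 (adjusted p = 0.94). Cenpa and Rrm1 did not pass either, at 63.1 and 162 CPM against 61.3 and 148 CPM, and at 67.3 and 65.0 CPM against 70.4 and 74.6 CPM. Mki67, at 21.02 and 32.5 CPM on 5 and 5 UMIs, stood against 15.7 and 16.9 CPM in the rest, and Tuba1b, at 160 and 169 CPM, against 160 and 131 CPM. Mcm4, at 4.204 and 45.5 CPM against 33.2 and 28.1 CPM, went opposite ways in the 2 replicates, and none of these 3 genes passed. The median log2 ratio over the 23 genes was -0.06 against the rest, where all genes had -0.09, and 0.32 for Ncr1-positive over Ccr6 or Cd4 positive cells, where all genes had 0.10.

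**Figure D5:**
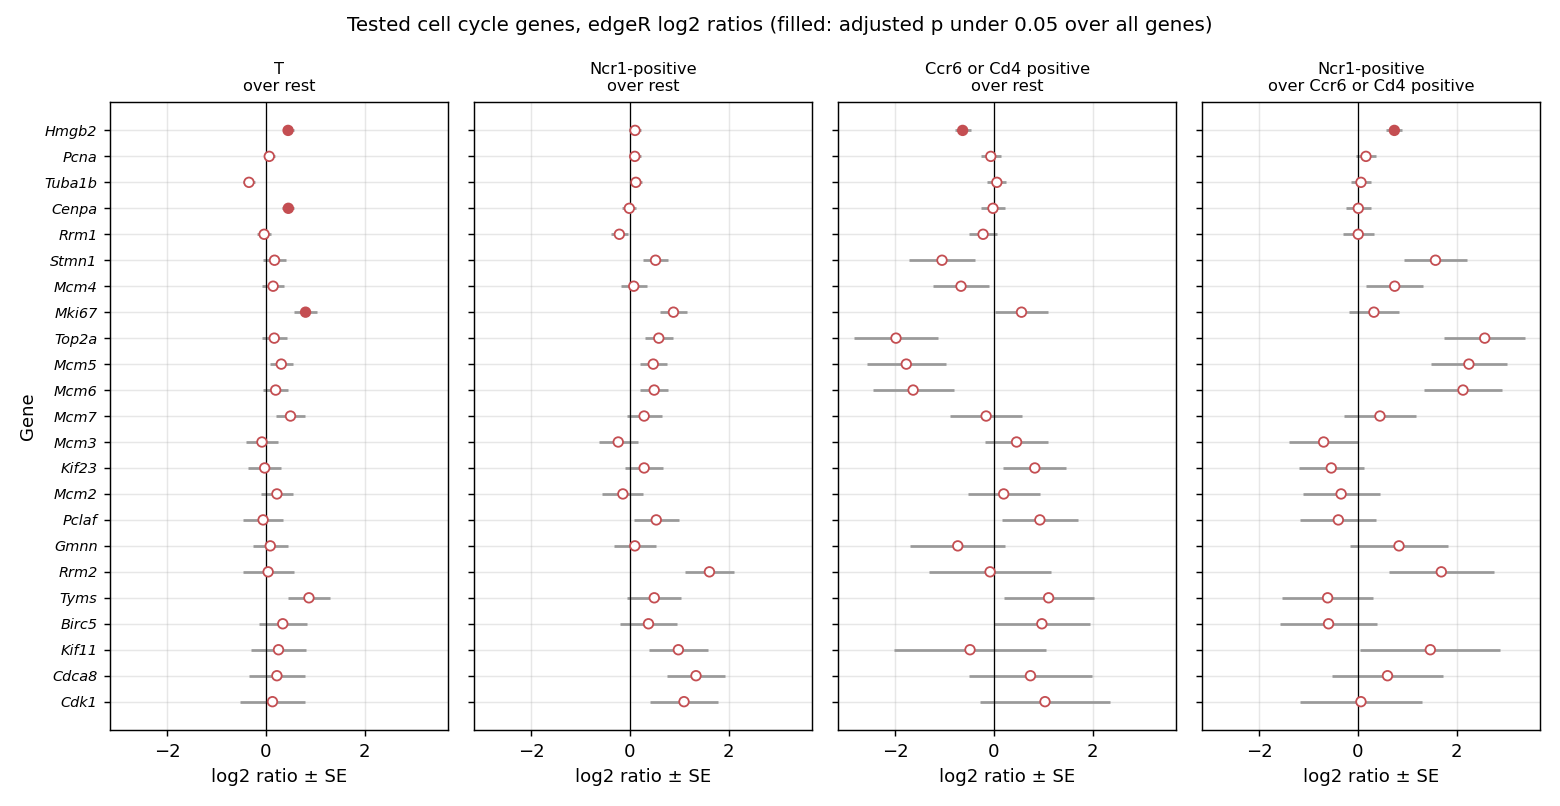
Log2 ratios with standard errors for the 23 tested genes in the 4 comparisons, ordered by mean CPM; filled points passed an adjusted p of 0.05 over all genes. Hmgb2 is filled in 3 panels, above 0 for T cells over the rest and below 0 for Ccr6 or Cd4 positive cells over the rest, and errors widen toward the genes with few UMIs.

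Among cell cycle genes outside the list, the D-type cyclin genes Ccnd2 and Ccnd3 were lower in the Ccr6 or Cd4 positive cells, and Ccnd1, with 38 UMIs in all, was not tested. Against the rest, 2 of 5 tested G1 cyclin and kinase genes were lower and 1 of 9 tested brakes was higher, with 0 of 16 replication and 0 of 19 mitosis genes called. Over all genes 4.17% were called, 1.60% higher and 2.57% lower. Ccnd2, a D-type cyclin that links growth signals to S phase entry, stood at 298 and 422 CPM in Ccr6 or Cd4 positive cells, against 607 and 602 CPM in the rest (log2 ratio -0.89 ± 0.15, adjusted p = 0.00063). Ccnd3, its relative, stood at 151 and 110 CPM, against 335 and 247 CPM (-1.23 ± 0.21, adjusted p = 0.00074). Cdkn1a, which encodes the inhibitor p21, stood at 517 and 442 CPM, against 320 and 303 CPM (0.54 ± 0.14, adjusted p = 0.024). The groups did not overlap for any of these 3 genes, but they were named because they were called, so this adds no support. How many of all genes did not overlap was not counted. The Cdkn1a call ended when cells were thinned, without cells carrying other types' markers, with no filter on low counts, without the replicate block and with T cells also called by receptor constant genes, where its log2 ratio was -0.02.

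In Ncr1-positive over Ccr6 or Cd4 positive cells, the same G1 genes differed and a few others did. Ccnd3 stood at 411 and 262 CPM in Ncr1-positive cells, against 151 and 110 CPM in Ccr6 or Cd4 positive cells (log2 ratio 1.43 ± 0.21, adjusted p = 8.7e-05), and Ccnd2 at 780 and 684 CPM against 298 and 422 CPM (1.15 ± 0.15, adjusted p = 2.1e-05). Dek, a chromatin factor, was higher in Ncr1-positive cells (0.73 ± 0.16, adjusted p = 0.0068), as was Hmgb1, named here outside the rule (0.52 ± 0.14, adjusted p = 0.037). Cdkn1a was lower at 238 and 243 CPM against 517 and 442 CPM (-0.92 ± 0.15, adjusted p = 0.00019), and Hells, a chromatin remodeller, at 9.72 and 3.45 CPM against 42.0 and 25.98 CPM (-2.22 ± 0.60, adjusted p = 0.031). The Hmgb1 call ended in 7 alternatives, among them thinned cells, RLE size factors and DESeq2. Those of Dek and Hells ended in 3 each, both without cells carrying other types' markers and without the replicate block, Dek also with T cells called by receptor constant genes and Hells with the stricter cell filter. In all 6 of the 49 genes tested were called, where 4.56% of all genes were. These 2 comparisons share the Ccr6 or Cd4 positive cells. Ncr1-positive cells against the rest gave 0 calls among the 49 other cell cycle genes tested.

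T cells against the rest had 6 such genes higher and 2 lower, 8 of the 49 tested, near the 13.8% called over all genes. Cdk6, a G1 kinase, was at 45.4 and 36.9 CPM in T cells, against 25.2 and 21.5 CPM in the rest (log2 ratio 0.83 ± 0.20, adjusted p = 0.0046). Cdkn2d, an inhibitor of that kinase, was at 45.0 and 26.01 CPM against 19.7 and 22.3 CPM (0.74 ± 0.22, adjusted p = 0.027). Atad2, a chromatin ATPase made in S phase, was at 57.6 and 42.6 CPM against 31.7 and 29.1 CPM (0.74 ± 0.17, adjusted p = 0.0047). The other 3 higher genes, named after their values were seen, were Lmnb1, Btg1 and Cdkn1b. Prc1, which bundles midzone microtubules, was lower at 11.1 and 4.73 CPM against 21.5 and 15.3 CPM (-1.21 ± 0.31, adjusted p = 0.0090), and Tubb4b, a beta-tubulin, at 148 and 140 CPM against 192 and 194 CPM (-0.41 ± 0.12, adjusted p = 0.020). By list, 1 of 16 replication genes was higher, 1 of 19 mitosis genes higher and 2 lower, 1 of 5 G1 genes higher and 3 of 9 brakes higher. Over the 9 tested brakes the median log2 ratio was -0.04, with 4 above 0, so the 3 calls do not describe that list. With calls near the share over all genes, nothing is read from which lists they fell in. With T cells also called by receptor constant genes 7 of these 8 calls ended, Prc1 with a log2 ratio of 1.47, and Cdkn2d had no value. Without the replicate block all 8 ended, and with DESeq2 all but Lmnb1. The Cdkn1b call ended in 7 alternatives, with log2 ratios of 0.03 to 0.36, also with the looser or stricter cell filter, without cells carrying other types' markers and with no filter on low counts. The Cdk6 call also ended in thinned cells, those of Prc1, Tubb4b and Cdkn2d with the stricter cell filter, and that of Cdkn2d without cells carrying other types' markers.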

How the data were processed

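Single-cell RNA was captured with BD Rhapsody. Per the file headers the authors deposited UMI counts per cell and gene from the BD WTA Multiplex Rhapsody Analysis Pipeline 1.8 with GENCODE M19 on GRCm38; the submitters' processing notes also name HISAT2 2.0.5, Bowtie2 and mm10. From each library (15793 and 16531 cells) the 3427 and 3954 cells of its own sample tag were taken, and multiplets, undetermined cells and other tags were not used here. No doublet caller was run. Cells with under 300 genes or over 25% mitochondrial UMIs were left out. UMIs were summed by replicate and kind of cell, giving 8 sums, and tested with edgeR 4.0.16 (R 4.3.3; quasi-likelihood, TMM, filterByExpr, replicate block, Benjamini-Hochberg over 9637 genes, adjusted p under 0.05; genes that define the kinds left out). All sums in a block come from 1 library, which is the source of the pairing. On simulated data for T cells over the rest, run on 9256 genes, 96% of 2-fold and 100% of 4-fold changes were recovered, with 3.92% false calls. Only well-counted genes were changed, every gene had the same dispersion, and no difference between replicates was simulated. These rates therefore do not cover genes with few UMIs or the comparisons with Ccr6 or Cd4 positive cells. The rule named members called in any comparison, the 10 with the highest mean CPM, those with 0 UMIs in a sample, the 5 highest and 5 lowest shares of UMIs in cells with 3 or more other UMIs, and, outside the list, the 3 most raised and 3 most lowered called genes per comparison; other members were named after their values were seen. The members and lists were chosen with earlier results of these data known. Positions are from GENCODE M21 on GRCm38.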

Additional observations from a re-analysis of the deposited data

How the results depend on the processing

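The cause of the changes below was not tested, and alternatives with 10 or more UMIs, without Hmgb2, Pcna, Cenpa and Rrm1, or without the 81 cells were chosen after seeing the data. Over all genes, T cells called also by receptor constant genes gave 307 calls for T over rest, 152 for Ccr6 or Cd4 positive over rest and 154 for Ncr1-positive over Ccr6 or Cd4 positive. DESeq2 1.42.0 gave 718, 10 and 244 for T, Ncr1-positive and Ccr6 or Cd4 positive over rest. Without the replicate block the 4 comparisons gave 71, 0, 1 and 10. Ncr1-positive over rest gave 58 thinned, 158 where T needs 2 Cd3 UMIs, 23 without other cell types and 226 with no filter. Higher calls were 29.6% of the 307 and 27.0% of the 152, and 56.6% of the 244. With no filter the median of all genes was -0.35 for Ccr6 or Cd4 positive and -0.13 for Ncr1-positive over rest.

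Calls among the cell cycle genes for T over rest were 1 by receptor constant genes, 1 with DESeq2 and 0 without the block. For Ncr1-positive over rest 1 was called with no filter. For Ccr6 or Cd4 positive over rest 0 were called by receptor constant genes, with DESeq2 and without the block, and for Ncr1-positive over Ccr6 or Cd4 positive 0 by receptor constant genes, 2 with no filter and 0 without the block.

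Mean shares of cells were 32.3% in T, 25.3% in Ncr1-positive, 17.4% in Ccr6 or Cd4 positive and 18.9% in rest cells. In the same order they were 11.3, 6.81, 5.22 and 7.55% thinned, 25.8, 19.98, 10.1 and 12.4% by receptor constant genes, 54.9, 45.1, 33.9 and 38.1% with 2 or more UMIs, 10.9, 7.27, 5.75 and 5.08% with 5 or more, 4.74, 3.42, 4.97 and 2.72% without Hmgb2, Pcna and the MCM genes, 2.42, 1.90, 2.05 and 1.45% without Hmgb2, Pcna, Cenpa and Rrm1, 1.59, 1.06, 1.90 and 0.761% with 10 or more, 0.459, 0.492, 0.676 and 0.328% with 10 or more thinned, and 1.14, 0.736, 1.45 and 0.580% with 10 or more without other cell types. T cells had 34.3% with the stricter filter, 36.3% with 2 Cd3 UMIs and 30.2% without other cell types, and Ncr1-positive cells had 23.7% without other cell types. Single replicates gave 31.3 to 33.2%, 24.5 to 26.03%, 13.3 to 21.5% and 17.1 to 20.6%.

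Log2 ratios that turned were that of Rrm2 in Ncr1-positive over rest, at -0.088 without replicate 1 and 2.34 without replicate 2, and, by receptor constant genes, those of Cdkn1a in Ccr6 or Cd4 positive over rest, at -0.021, and Prc1 in T over rest, at 1.47. With 1 replicate left out no residual degrees of freedom remain, so calls could not be recounted. The values of Ccr6 or Cd4 positive cells rest on only 128 and 79 cells.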
